A study of Homo sapiens with 14 samples.

Results

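The genes described here are 7 genes that are recurrently mutated in uveal melanoma, the most common cancer that arises inside the adult eye: GNAQ, GNA11, PLCB4, CYSLTR2, BAP1, SF3B1 and EIF1AX. They were chosen by name, and every probe that the array annotation assigns to one of them was taken. Of the 47323 probes on the array, 9 carried one of these names: 1 for GNAQ, 2 for GNA11, 1 for PLCB4, 2 for SF3B1 and 3 for EIF1AX. So 5 of the 7 genes had a probe, among 12306 genes named in all, while CYSLTR2 and BAP1 had no probe in the annotation used and were not analysed here. Of the 9 probes, 8 passed the filter on dim probes (3 or more arrays with a detection p-value under 0.05), as did 22158 of all probes, and the PLCB4 probe did not.

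In uveal melanocytes, GNAQ and GNA11 are closely related alpha subunits of the heterotrimeric G protein Gq, which carry the signal of a receptor to phospholipase C beta. PLCB4 is a phospholipase C beta that makes diacylglycerol and inositol trisphosphate, which act on protein kinase C and calcium, and CYSLTR2 is a receptor for cysteinyl leukotrienes that couples to Gq. A tumour usually carries an activating mutation in 1 gene of this chain, as the initiating event. BAP1, a deubiquitinase of histone H2A, SF3B1, a subunit of the U2 snRNP that recognises branch points in introns, and EIF1AX, an initiation factor that helps the small ribosomal subunit scan for the start codon, are mutated later, usually only 1 of these in a tumour, and they separate tumours of high, intermediate and low risk of metastasis. ICG-001 is a small molecule known to bind CBP, a transcriptional coactivator, and to block its binding to beta-catenin.

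All samples were the human cell line Mel202, which comes from a uveal melanoma that recurred locally after irradiation. Per the labels it carries the GNAQ changes Q209L and R210K and is BRAF wild type, so both apply to control and treated cells alike, and the line is also known for a mutation in SF3B1. Cells in their regular medium with 10% serum received ICG-001 at 3 µM or the solvent DMSO, for 24 h or 48 h, and RNA was measured on Illumina bead arrays, which give RNA levels and not alleles. At each time there were 3 DMSO arrays and 4 ICG-001 arrays. Some titles carry 1 number on a pair of arrays, told apart by a or b, and each such pair was averaged, leaving n = 2 DMSO and n = 3 ICG-001 replicates at each time, 10 in all. Nothing in the labels says that replicates were separate cultures. The p-values therefore refer to the spread among these samples, and this spread may be technical.

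Median signals ran from 113.1 to 139.1 over the arrays, on each of which 17619 to 20124 probes (37.2% to 42.5%) were detected, that is, had a detection p-value under 0.05. Markers of the melanocyte lineage bore out the label: the 8 of the 10 listed genes that had a probe (MLANA, PMEL, TYR, TYRP1, MITF, SOX10, SLC45A2 and PAX3) were detected on 14 of 14 arrays. Of markers of other cell types, DCN of fibroblasts and KDR of endothelium were detected on 0 of 14 arrays, while LUM, EMCN, CD68, BEST1 and CDH1 were detected on 14, TTR on 11, COL1A1 on 5, CD14 and LRAT on 4 and RLBP1 on 3. In the mean of the ICG-001 effects SLC45A2, SOX10 and TYR of the 8 melanocyte genes fell and 0 rose, LUM, CDH1, CD68 and CD14 fell, and BEST1 and TTR rose. Summed over a list, the normalised signal of the replicates was 52200 to 57500 with DMSO and 47400 to 51400 with ICG-001 for the melanocyte genes, 622 to 888 and 178 to 240 for 3 of 7 fibroblast genes, 1310 to 1390 and 864 to 1050 for 2 of 5 immune genes, and 543 to 649 and 781 to 1110 for 4 of 5 genes of the retinal pigment epithelium. It was 283 to 438 and 262 to 432 for 2 of 5 endothelial genes, and 169 to 422 and 68.4 to 275 for 1 of 5 epithelial genes. The part of these shifts in the results below was not tested. Bulk RNA cannot tell fewer cells of a type from less RNA per cell. The 4 arrays whose titles end in b, 1 in each group, stood apart: 13608 to 14060 of their probes had a detection p-value under 0.01, against 15294 to 17374 on the other arrays, and for 2 EIF1AX probes they differed as given with that gene. What the letter stands for is not given in the labels.

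Promoter sequences are shown for 3 of the genes that could be measured, EIF1AX because its probes moved with ICG-001 and GNA11 and SF3B1 because their probes did not pass the test. They are the 250 bases before the start of transcription as RefSeq gives it (assembly GRCh38.p14), 5′ to 3′ along the gene. RefSeq entries were found for 4 of the 7 genes (GNA11, CYSLTR2, SF3B1 with an upstream and a downstream start, and EIF1AX). Capitals mark matches to the motifs searched on both strands, a choice made with the sequences in view.
EIF1AX, chrX:20141839-20142088, minus strand: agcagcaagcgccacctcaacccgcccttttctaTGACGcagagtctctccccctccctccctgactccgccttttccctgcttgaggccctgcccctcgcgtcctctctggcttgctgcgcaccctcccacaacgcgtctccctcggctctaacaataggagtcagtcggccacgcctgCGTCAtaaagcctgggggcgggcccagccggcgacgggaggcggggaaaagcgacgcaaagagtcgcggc
GNA11, chr19:3094112-3094361, plus strand: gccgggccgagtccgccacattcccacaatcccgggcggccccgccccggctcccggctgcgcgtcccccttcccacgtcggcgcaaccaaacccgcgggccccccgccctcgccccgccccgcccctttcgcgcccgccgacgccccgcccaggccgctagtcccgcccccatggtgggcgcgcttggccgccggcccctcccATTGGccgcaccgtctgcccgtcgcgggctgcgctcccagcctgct
SF3B1, chr2:197435029-197435278, minus strand, the downstream start: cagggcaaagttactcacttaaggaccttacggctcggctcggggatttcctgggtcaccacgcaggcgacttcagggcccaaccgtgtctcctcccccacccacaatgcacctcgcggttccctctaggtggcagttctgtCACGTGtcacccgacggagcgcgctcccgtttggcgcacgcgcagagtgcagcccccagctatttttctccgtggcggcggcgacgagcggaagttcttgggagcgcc
All 3 windows are rich in G and C, which make up 66%, 80.4% and 64% of the bases in this order, with 22, 37 and 24 CpG dinucleotides. The EIF1AX window held 2 matches to TGACG, the half-site of the cAMP response element to which CREB binds, beginning 216 and 70 bases before the start, the second on the opposite strand. That motif was found in 21.2% of the 35116 promoters searched. GNA11 held 1 match to CCAAT on the opposite strand (in 32% of promoters), and SF3B1 held 1 E-box, CACGTG (6.34%). None of these windows held the full element TGACGTCA (1.65% of promoters), the TCF/LEF motif CTTTGAT (2.26%), the ATF4 composite motif TGATGNAA (3.14%), the AP-1 motif TGACTCA (4.2%) or the TATA box TATAAA (10.7%). The full element contains the half-site. A match is a description of these letters and not a binding site.

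Every probe of these genes that passed the test of ICG-001 against DMSO belonged to EIF1AX. The brighter pair of EIF1AX probes rose when the effects at 24 h and 48 h were averaged, by 1.28-fold and 1.36-fold. The third, dim EIF1AX probe was lower, but it passed the detection filter through DMSO arrays alone, so its calls are not taken as support for a fall. GNAQ, which carries the initiating mutation of these cells, GNA11 and SF3B1 had no probe past the threshold at 24 h, at 48 h or in the mean. PLCB4 lay near background in every group.

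Changes are differences of log2 signal between ICG-001 and DMSO, with the SE of a limma fit over all 4 groups, and a probe is said to rise or fall where its Benjamini-Hochberg adjusted p over all 22158 probes was below 0.05, two-sided. Of the 8 tested probes, 1 was called at 24 h, where it fell, and this compares with 17.1% of all tested probes called (8.8% higher and 8.32% lower). At 48 h 1 was called, which rose, against 18.7% of all probes (9.44% higher, 9.25% lower). For the mean of the effects 2 rose and 1 fell, against 33.2% of all probes (16.5% higher, 16.7% lower), and all 3 belong to EIF1AX. The probe that fell at 24 h and in the mean was the dim EIF1AX probe. It passed the detection filter through DMSO arrays alone, so these calls are counted but not taken as support for a fall. At an unadjusted p below 0.05 it was 3 of 8 at 24 h, at 48 h and in the mean, where all probes had 31.4%, 32.7% and 42.7%. With 8 probes these shares are near the background, so the set as a whole did not stand out in how often it was called. The median change of the 8 probes was -0.005 at 24 h, -0.17 at 48 h and -0.13 in the mean, where the medians of all tested probes were -0.015, -0.02 and -0.022. Regardless of sign, the median size of change was 0.39, 0.21 and 0.27 for the 8 probes and 0.25, 0.26 and 0.23 for all.

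**Figure D1:**
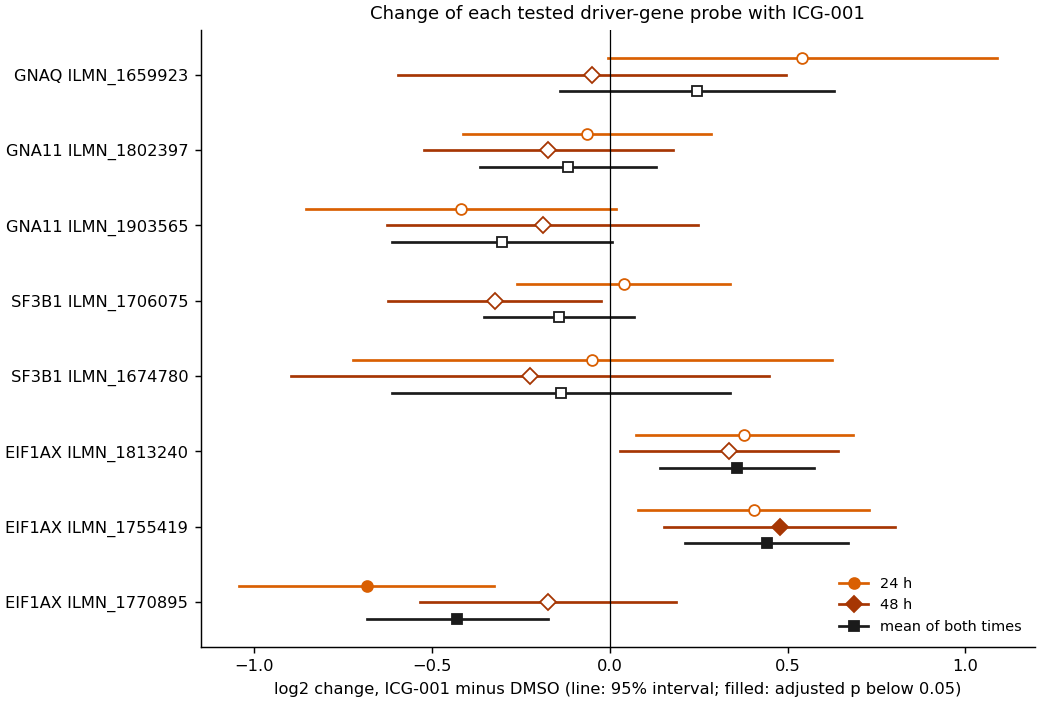
Log2 change of each tested probe with ICG-001 (ICG-001 minus DMSO) at 24 h (circles), at 48 h (diamonds) and averaged over both (squares), with 95% intervals as lines; filled symbols have an adjusted p below 0.05. The EIF1AX probes ILMN_1813240 and ILMN_1755419 lie above 0 and ILMN_1770895 lies below 0, while the intervals of GNA11 and of SF3B1 probe ILMN_1674780 include 0 in every comparison.

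Replicates of the groups did not overlap for 3 of the 8 probes at 24 h, 2 with ICG-001 higher and 1 lower. At 48 h it was likewise 3, 2 higher and 1 lower. Those higher were the brighter EIF1AX probes at both times. The lower one at 24 h was the dim EIF1AX probe, which passed the detection filter through DMSO arrays alone. At 48 h the lower one was SF3B1 probe ILMN_1706075. Among all tested probes 45.5% did not overlap at 24 h (22.5% higher, 23.1% lower) and 49.1% at 48 h (23.4% higher, 25.7% lower), so the share for these genes is no larger than the background. How far the data bound a change is given by the 95% intervals. At 48 h and in the mean, the intervals of 8 of 8 probes stayed within 2-fold in either direction, and at 24 h those of 6 did. The 24 h intervals that reached 2-fold were those of GNAQ and of the dim EIF1AX probe.

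GNAQ, the mutated G protein subunit of this line, was detected on every array (probe ILMN_1659923). At 24 h its log2 levels were 7.49 and 6.42 in the DMSO replicates and 7.54, 7.36 and 7.59 in the ICG-001 replicates. At 48 h they were 7.61 and 7.77 with DMSO and 7.69, 7.70 and 7.52 with ICG-001. A single DMSO replicate at 24 h, the mean of a pair of arrays, lay well below every other value, and the groups overlapped at both times. The change was 0.54 ± 0.25 (SE) at 24 h, with a 95% interval from -0.004 to 1.09 and an adjusted p of 0.16, and -0.05 ± 0.25 at 48 h (adjusted p = 0.92). The value at 24 h rests on the DMSO replicates, which had a mean of 6.95 ± 0.76 (SD, n = 2): it was 1.08 without the higher of them and 0.004 without the lower. The change at 24 h passed the test in 2 of 22 alternatives, that without the higher DMSO replicate among them. Ordered by mean, the groups ran from DMSO at 24 h (6.95) through ICG-001 at 24 h (7.50) and at 48 h (7.64) to DMSO at 48 h (7.69), and the replicates of neighbours in this order overlapped.

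GNA11, the close paralog of GNAQ, was read by a bright and a dim probe, and their letters were not analysed here. For ILMN_1802397 the log2 levels at 24 h were 8.88 and 8.91 with DMSO and 8.66, 8.94 and 8.90 with ICG-001. At 48 h they were 9.06 and 8.99 with DMSO and 8.78, 9.12 and 8.66 with ICG-001. Treated replicates lay on both sides of the DMSO values at both times. The changes were -0.06 ± 0.16 at 24 h (adjusted p = 0.83) and -0.17 ± 0.16 at 48 h (adjusted p = 0.50). Ordered by mean, the groups ran from ICG-001 at 24 h (8.83 ± 0.15, SD, n = 3) and at 48 h (8.85 ± 0.24, n = 3) to DMSO at 24 h (8.90 ± 0.02, n = 2) and at 48 h (9.02 ± 0.05, n = 2). Neighbours overlapped, except the DMSO groups, whose difference of 0.13 did not pass the test (adjusted p = 0.92).

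The dim GNA11 probe, ILMN_1903565, was detected on 3 of 3 DMSO arrays at each time, and with ICG-001 on 1 of 4 arrays at 24 h and 3 of 4 at 48 h. Its log2 levels at 24 h were 5.54 and 5.34 with DMSO and 4.74, 5.41 and 4.93 with ICG-001. At 48 h they were 5.48 and 5.41 with DMSO and 5.49, 5.21 and 5.06 with ICG-001. A treated replicate reached the DMSO values at each time. The changes of -0.42 ± 0.20 (adjusted p = 0.18) and -0.19 ± 0.20 (adjusted p = 0.56) did not pass the test, nor did the mean effect of -0.30 ± 0.14 (adjusted p = 0.12). The mean effect passed in 2 of 19 alternatives, at -0.40 (adjusted p = 0.0292) without ICG-001 24 h replicate 3 and at -0.35 (adjusted p = 0.05) with every array as a replicate. Over the 10 replicates, Pearson's r between both GNA11 probes was 0.51, a description of values that share libraries.

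PLCB4, the phospholipase downstream of Gq, was near background (probe ILMN_1736426). It was detected on 2 of 3 DMSO arrays at 24 h and on 0 arrays of each other group, so it was not tested. Its deposited signals were 119.4 to 145.6 with DMSO and 113.6 to 121 with ICG-001 at 24 h, and 127.9 to 139.1 and 113.9 to 128.2 at 48 h. These are close to the median signals of whole arrays, most of whose probes were not detected. The log2 levels at 24 h were 5.33 and 4.87 with DMSO and 4.72, 4.60 and 4.59 with ICG-001, and at 48 h 4.77 and 4.76 with DMSO and 4.57, 5.08 and 4.70 with ICG-001. No fold is given at 24 h, since the DMSO mean of 5.10 did not exceed the level that a detected probe can have on the treated arrays.

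**Figure D2:**
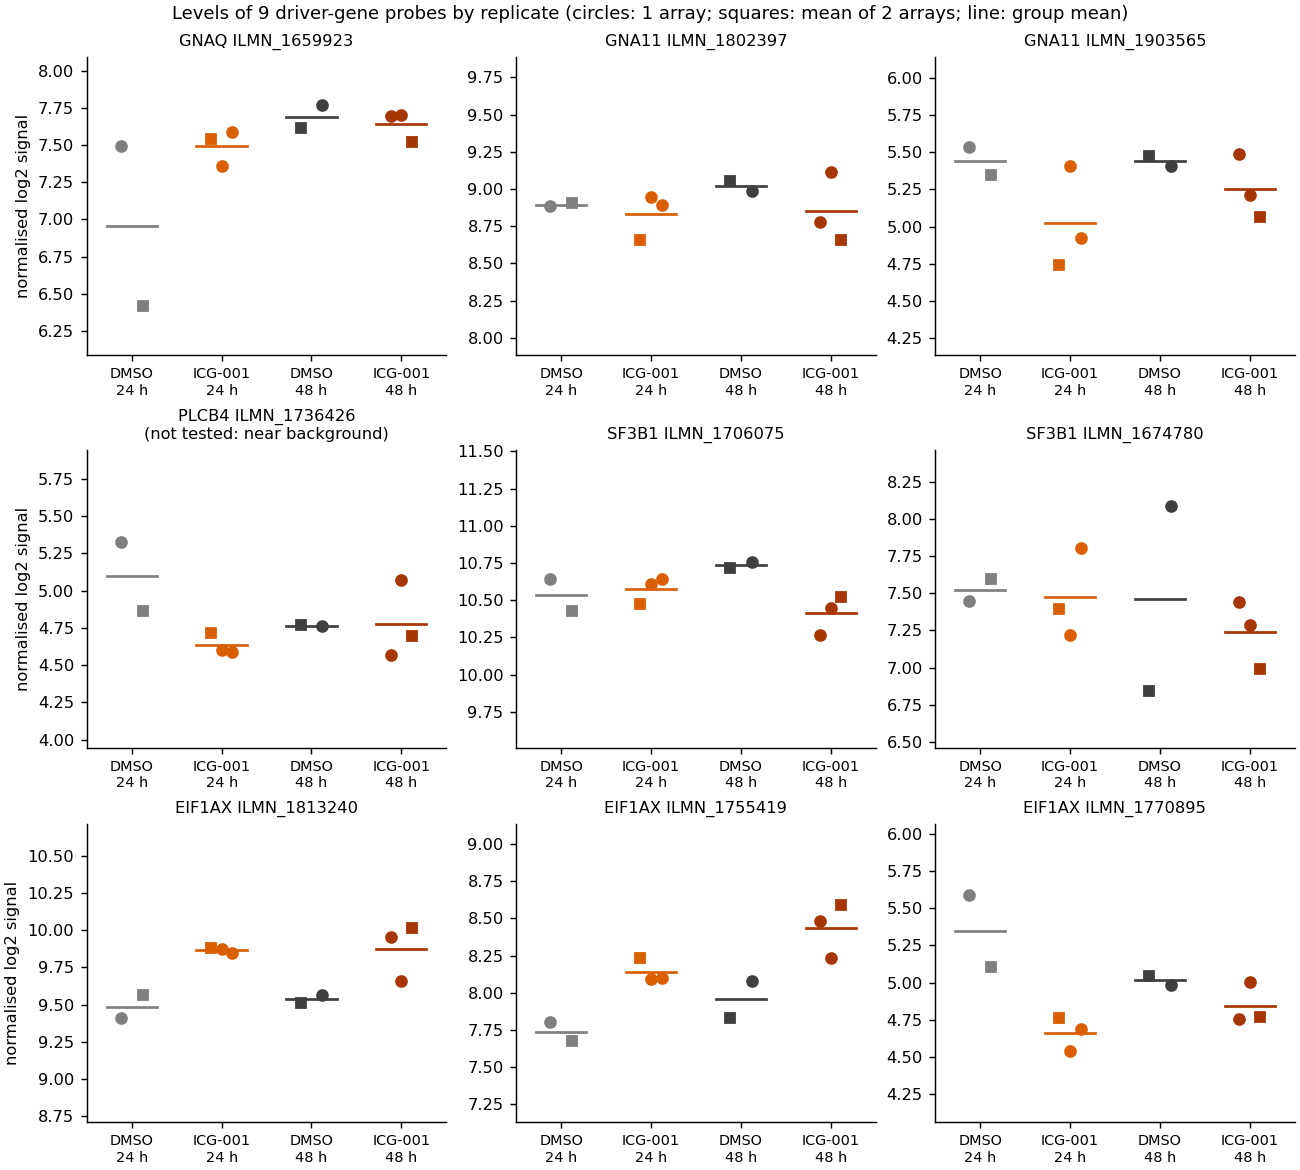
Normalised log2 signal of the 9 probes in each replicate by treatment and time; circles are single arrays, squares the mean of 2 arrays and lines the group means, and every panel spans the same number of log2 units. The low DMSO replicate of GNAQ at 24 h, the higher levels of EIF1AX probes ILMN_1813240 and ILMN_1755419 with ICG-001 and the near-background PLCB4 can be read from it. Heights of different probes cannot be set against each other.

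SF3B1, the branch-point recognition subunit, was bright on every array (ILMN_1706075). At 24 h its log2 levels were 10.64 and 10.43 with DMSO and 10.47, 10.61 and 10.64 with ICG-001. At 48 h they were 10.72 and 10.76 with DMSO and 10.27, 10.45 and 10.52 with ICG-001. The groups overlapped at 24 h, and at 48 h every treated replicate lay below both DMSO replicates. The change was 0.04 ± 0.14 at 24 h (adjusted p = 0.88) and -0.32 ± 0.14 at 48 h, 1.25-fold lower, with a 95% interval from -0.62 to -0.02. At 48 h the adjusted p over all probes was 0.12, so it did not pass the test. It passed in 2 of 22 alternatives, with a change of -0.30 and an adjusted p of 0.0342 without background correction and 0.0274 in the authors' table.

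The second SF3B1 probe, ILMN_1674780, gave log2 levels of 7.45 and 7.60 with DMSO and 7.40, 7.22 and 7.81 with ICG-001 at 24 h. At 48 h it gave 6.84 and 8.08 with DMSO and 7.44, 7.29 and 6.99 with ICG-001. All treated values at 48 h lay between both DMSO values, which had an SD of 0.88 (n = 2), the widest of its groups. The changes of -0.05 ± 0.31 and -0.22 ± 0.31 had adjusted p of 0.94 and 0.67. Over the 10 replicates r between the SF3B1 probes was 0.14.

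EIF1AX, the scanning factor, was read by 3 probes. It has a near-identical copy on another chromosome, and which transcripts each probe reads was not analysed here. For the brightest, ILMN_1813240, the log2 levels at 24 h were 9.41 and 9.56 with DMSO and 9.88, 9.87 and 9.85 with ICG-001. At 48 h they were 9.51 and 9.57 with DMSO and 9.96, 9.66 and 10.01 with ICG-001. Every treated replicate was above both DMSO replicates at both times. Before averaging, the arrays overlapped. The DMSO b array lay at 9.88 at 24 h and 9.81 at 48 h, and the lowest treated array at 9.60 and 9.66. The rise was 0.36 ± 0.10 in the mean of the effects, 1.28-fold, with a 95% interval from 0.14 to 0.57 and an adjusted p of 0.0168. Taken alone, the changes of 0.38 ± 0.14 at 24 h (adjusted p = 0.0863) and 0.34 ± 0.14 at 48 h (adjusted p = 0.12) did not pass.

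ILMN_1755419 gave log2 levels of 7.80 and 7.68 with DMSO and 8.24, 8.10 and 8.10 with ICG-001 at 24 h. At 48 h it gave 7.83 and 8.08 with DMSO and 8.48, 8.24 and 8.59 with ICG-001. Treated and control replicates were again apart at both times. Before averaging, the arrays overlapped at 24 h, where the DMSO b array lay at 8.12 and the lowest treated array at 7.81. At 48 h they did not overlap. The probe rose by 0.44 ± 0.10 in the mean, 1.36-fold (95% interval 0.21 to 0.67, adjusted p = 0.0078). It rose by 0.48 ± 0.15 at 48 h, 1.39-fold (adjusted p = 0.0443), and its change at 24 h was 0.41 ± 0.15 (adjusted p = 0.084). The mean effect passed the test in 20 of 20 alternatives (0.27 to 0.52, adjusted p 0.00235 to 0.0412), and that of ILMN_1813240 in 18 of 21 (0.30 to 0.41, adjusted p 0.00265 to 0.0599). The call at 48 h was lost in 11 of 21.

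The third EIF1AX probe, ILMN_1770895, was dim and went the other way. It was detected on 2 of 3 DMSO arrays at 24 h and 1 of 3 at 48 h, and on 0 of 4 ICG-001 arrays at either time. The probe therefore met the filter of 3 or more detected arrays through DMSO alone, the treatment in which it was higher. For this reason its calls are not taken as support for a fall. Its log2 levels at 24 h were 5.59 and 5.11 with DMSO and 4.76, 4.54 and 4.69 with ICG-001. At 48 h they were 5.04 and 4.99 with DMSO and 4.75, 5.01 and 4.77 with ICG-001. The groups were apart at 24 h and overlapped at 48 h. Its adjusted p in the limma fit was 0.0169 at 24 h and 0.51 at 48 h. At 24 h the DMSO mean was 1.19-fold above the lowest level of a detected probe on the treated arrays. This is not a minimum for a fall, since it rests on the single DMSO array at 5.59. The averaged DMSO replicate, which includes an array below detection, lay at 5.11, next to the level of 5.10 used for the treated arrays. At 48 h no such fold could be given. The mean effect was -0.43 ± 0.12 as measured, with an adjusted p of 0.0151, and treated values below detection make its size uncertain. That call was lost in 4 of 19 alternatives, over which the value ran from -0.55 to -0.10: 75th percentile scaling (-0.23, adjusted p = 0.24), the authors' table (-0.10, 0.06), and leaving out the single DMSO array at 24 h (-0.31, 0.057) or the averaged DMSO pair at 48 h (-0.42, 0.052). The 24 h call was lost in 5 of 20 alternatives, among them 75th percentile scaling (adjusted p = 0.074), the authors' table (0.055) and leaving out the single DMSO array at 24 h (0.12). Over the 10 replicates the brighter EIF1AX probes varied together (r = 0.84), and the dim probe ran against them (r = -0.85 and -0.60). These r values span treated and control replicates, so they include the changes given above and add no separate support. The dim probe was detected on only 3 of 14 arrays.

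Arrays with titles ending in b differed from their a partners most for EIF1AX. In the 4 pairs, ILMN_1813240 was higher on the b array by 0.56 to 0.65 log2 units and ILMN_1755419 by 0.62 to 0.89, each in 4 of 4 pairs, more than either probe's change with ICG-001. No other probe of these genes was higher on b in every pair. SF3B1 probe ILMN_1706075, PLCB4 and the dim EIF1AX probe were lower on b in 4 of 4 pairs, by 0.04 to 0.22, 0.11 to 0.57 and 0.03 to 0.31.

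Each group holds 1 b array, so the change with ICG-001 can be read within them, from 1 array against 1 and with no test. For ILMN_1813240 it was 0.28 at 24 h and 0.53 at 48 h on b arrays, and 0.45 and 0.38 on the others. For ILMN_1755419 it was 0.54 and 0.79 on b arrays, and 0.48 and 0.52 on the others. Both probes were thus higher with ICG-001 within b arrays and within the others at each time. Each b array shares its title number with an a array among the others, so these readings are not independent. Without the b arrays the change of ILMN_1755419 at 48 h was 0.52 with an adjusted p of 0.107. For the dim probe the 24 h difference was -0.21 within b arrays and -0.76 within the others. The SF3B1 difference at 48 h (ILMN_1706075) was -0.17 within b arrays and -0.34 within the others.

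**Figure D3:**
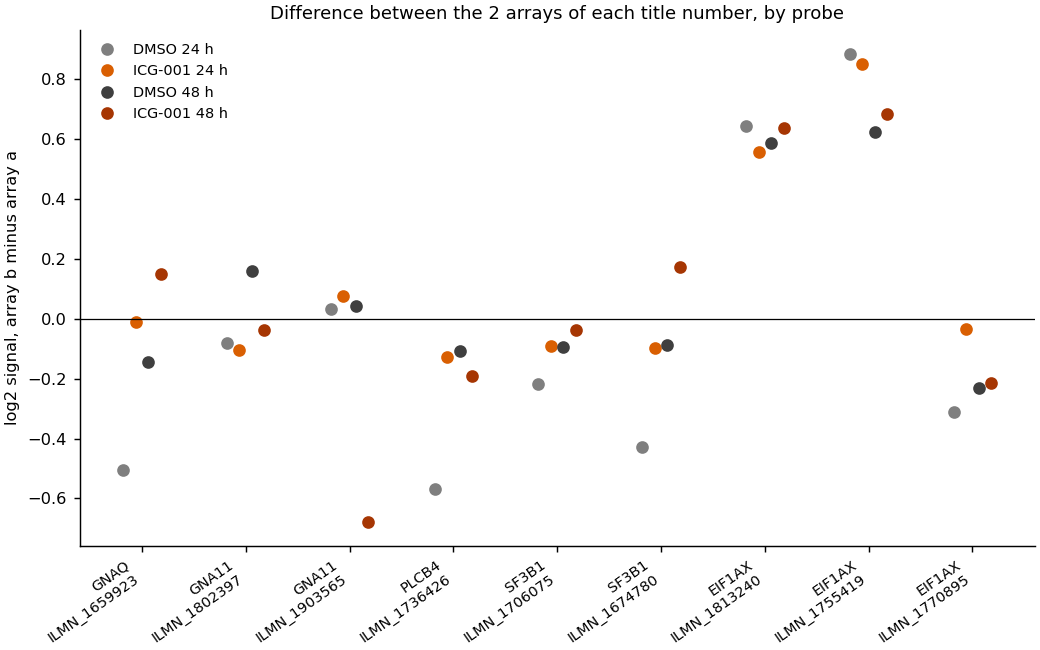
Log2 signal on the array ending in b minus that on the array ending in a, for each of the 9 probes, with 1 point for each of the 4 pairs, coloured by group. The EIF1AX probes ILMN_1813240 and ILMN_1755419 lie between 0.56 and 0.89 in all 4 pairs, while the other probes scatter around or below 0.

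Time in culture was compared in DMSO alone, which gives the baseline of each gene. None of the 8 probes was called between 48 h and 24 h, against 0.00903% of all probes (2 of 22158), and 1 of the 8 had an unadjusted p below 0.05, against 6.57%. That probe was GNAQ, with a difference of 0.74 ± 0.27 (adjusted p = 0.73), which again rests on the low DMSO replicate at 24 h. The other 7 probes had adjusted p of 0.78 to 1. Whether the effect of ICG-001 changed between 24 h and 48 h was tested as the difference of the effects: 0 of 8 probes and 0% of all probes were called in limma, and at an unadjusted p below 0.05 it was 1 of 8 and 5.05%. The dim EIF1AX probe had that value (0.51, unadjusted p = 0.0488, adjusted p = 0.97). The difference was -0.59 for GNAQ and -0.36 for SF3B1 probe ILMN_1706075, both with an adjusted p of 0.97. The 95% interval reached 2-fold for 3 of the 8 probes, so a moderate difference between the times was not detectable for them.

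To place each gene among the others, the 3 genes whose levels correlated best with it over the 10 replicates were taken from 11678 genes, each on its brightest probe, as a description with no test. For GNAQ they were DDHD2, GNG12 (a G protein gamma subunit) and PELI1, with Pearson's r of 0.96, 0.95 and 0.95. GNA11 ran closest to RTN4 (0.94), SLC30A3 (0.93) and MIGA2 (0.92). SF3B1 ran closest to RFXAP (0.94), COQ10B (0.93) and TDG (0.92), and EIF1AX to RIMKLB (0.97), CHD1 (0.96) and RPL23AP87 (0.96). With 10 replicates in 4 groups, a best match among so many genes is high for any gene, and the b arrays and the low DMSO replicate are shared by all.

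The genes that work with these drivers were followed in 7 lists, on the brightest probe of each gene. Over all 11679 genes tested, 11.2% were called higher and 8.55% lower at 24 h, 12% and 9.56% at 48 h, and 20.7% and 17.1% in the mean, with median changes of 0.02, 0.015 and 0.009. Alongside EIF1AX, 35 translation initiation factors and their partners were tested: 6 rose and 0 fell at 24 h, 6 and 0 at 48 h, and 14 and 0 in the mean, with medians of 0.21, 0.20 and 0.21. Members that did not pass lay on both sides of 0, among them EIF4A1 at -0.24 and EIF2B2 at -0.22 in the mean (adjusted p = 0.068 and 0.12). EIF3C, a subunit of the scaffold eIF3, rose 2.24-fold at 24 h and 2.68-fold at 48 h (adjusted p = 0.000416 and 0.000101), from 6.87 ± 0.06 (SD, n = 2) to 8.04 ± 0.05 (n = 3) and from 6.87 ± 0.13 to 8.29 ± 0.06. EIF1AD, a protein related to EIF1AX by its S1-like domain, rose 2.30-fold and 2.36-fold, from 5.55 ± 0.19 to 6.74 ± 0.16 and from 5.48 ± 0.06 to 6.72 ± 0.32. Its DMSO levels were low, close to that of the dim GNA11 probe (5.44), so the size of these folds is uncertain. EIF2S1, the alpha subunit of eIF2, rose 1.78-fold at 24 h, EIF2S2, its beta subunit, rose 1.68-fold and 1.65-fold, and EIF2B5, of its exchange factor, rose 1.46-fold at both times.

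Second probes of these initiation factors did not all follow: PAIP1 rose by 0.32 on its brightest probe and fell by 0.81 on another (adjusted p = 0.00337), and the other 2 EIF3B probes gave -0.12 and -0.11. The count in the mean became 9 with no b arrays, and 8 to 9 when a DMSO 48 h replicate, the averaged DMSO pair at 24 h or ICG-001 48 h replicate 2 was left out. At 24 h it became 3 when that pair was left out, and at 48 h 2 when either DMSO replicate was.

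Downstream of GNAQ, GNA11 and PLCB4, the list of 34 effectors and brakes of Gq had 30 genes tested. At 24 h 4 rose and 0 fell, at 48 h 5 rose and 1 fell, and in the mean 10 rose and 4 fell, with medians of 0.13, 0.04 and 0.12. PRKCA, the classical protein kinase C alpha that diacylglycerol and calcium activate, had the largest change of the list, 2.64-fold higher at 24 h and 2.32-fold at 48 h (adjusted p = 0.000368 and 0.000486). Its log2 level went from 7.60 ± 0.15 (SD, n = 2) to 9.00 ± 0.11 (n = 3) at 24 h and from 7.67 ± 0.03 to 8.88 ± 0.16 at 48 h, with no overlap. RGS2, a protein that switches off Gq, rose 1.57-fold and 1.70-fold (adjusted p = 0.0268 and 0.0123). MARCKS, a substrate of protein kinase C, rose 1.46-fold at 24 h, and PRKCB rose 1.74-fold and RGS16 1.49-fold at 48 h. The RGS16 level was 6.49 at 24 h and 5.96 at 48 h with DMSO, and 6.63 and 6.53 with ICG-001. PRKCH, protein kinase C eta, fell 1.85-fold at 48 h (adjusted p = 0.0288). Of the 4 other PRKCB probes, 3 rose at 48 h too. PTK2, a focal adhesion kinase, disagreed between its probes in the mean (0.36 and -0.33, both past the threshold). The count at 24 h became 2 when the averaged DMSO pair or any 1 of the ICG-001 replicates was left out, and at 48 h it became 2 to 3 when either DMSO replicate was. In the mean it became 8 when the averaged DMSO pair at 48 h was left out.

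**Figure D4:**
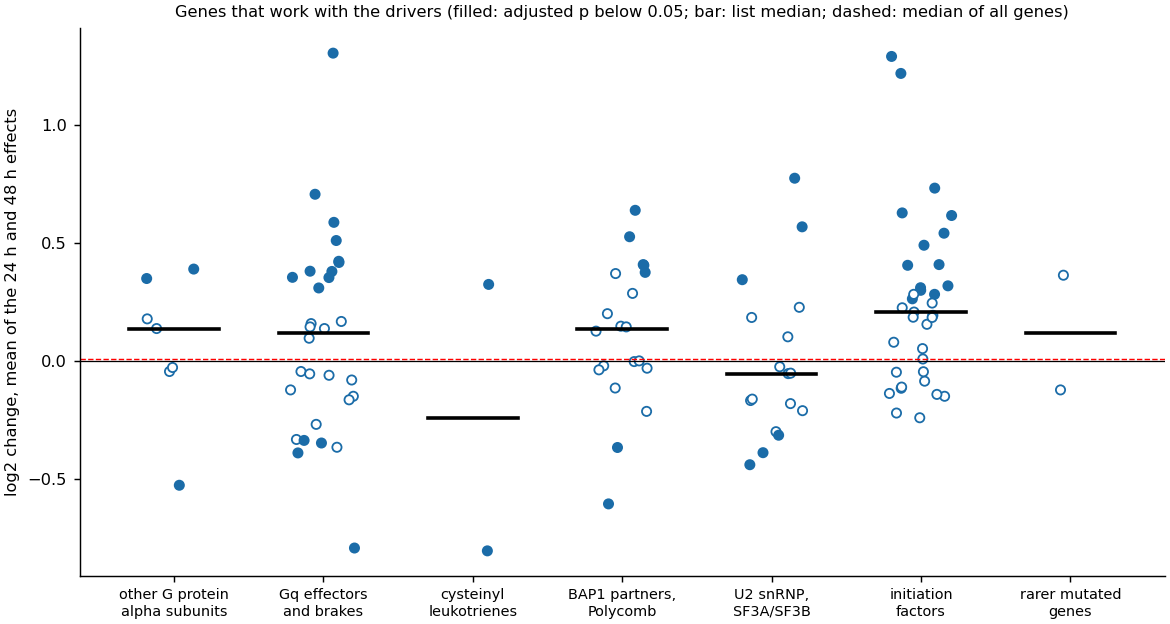
Log2 change (mean of the 24 h and 48 h effects, ICG-001 minus DMSO) of each tested gene in the 7 lists; filled points have an adjusted p below 0.05, bars are list medians, the dashed line is the median of all genes tested (0.009). PRKCA at 1.31 leads the Gq list, and all 14 called initiation factors lie above 0.

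Among the other G protein alpha subunits, 7 of 11 had a tested probe. GNAI2, of the inhibitory Gi class, fell 1.39-fold at 24 h and 1.49-fold at 48 h (adjusted p = 0.0237 and 0.00884), and on the brightest probes no other gene of this list was called at either time. In the mean GNAI1 rose 1.31-fold and GNA12 1.28-fold. A second, dimmer GNAI1 probe changed more, by 0.87 at 24 h, 0.74 at 48 h and 0.81 in the mean (adjusted p = 0.00777, 0.0147 and 0.000669), whereas a second GNA12 probe gave -0.29 in the mean (adjusted p = 0.30). The medians were 0.16, 0.09 and 0.14 at 24 h, at 48 h and in the mean. The 24 h call of GNAI2 was lost when the averaged DMSO pair or any 1 of the ICG-001 replicates was left out, the 48 h call when the averaged DMSO pair of that time was. On their brightest probes, the mean calls of GNAI1 and GNA12 were lost when the averaged DMSO pair of either time, or the single DMSO array at 48 h, was left out.

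Around CYSLTR2, 2 of 11 genes of cysteinyl leukotriene synthesis and reception were tested. MGST2, which can conjugate leukotriene A4 with glutathione, fell 1.61-fold at 24 h and 1.89-fold at 48 h (adjusted p = 0.00585 and 0.00125). LTA4H, which turns leukotriene A4 into leukotriene B4, rose 1.48-fold at 24 h (adjusted p = 0.0144), a call lost when the averaged DMSO pair was left out, and its change at 48 h was 0.09 (adjusted p = 0.70). Its DMSO level was 11.10 ± 0.17 (SD, n = 2) at 24 h and 11.55 ± 0.09 at 48 h, and its ICG-001 level 11.67 ± 0.08 (n = 3) and 11.64 ± 0.06.

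Around BAP1, 20 of 23 partners and Polycomb genes were tested, and 1 rose and 1 fell at 24 h, 2 rose and 2 fell at 48 h, and 5 rose and 2 fell in the mean, with medians of 0.14, 0.10 and 0.14. OGT, the O-GlcNAc transferase found in BAP1 complexes, rose 1.46-fold and 1.67-fold (adjusted p = 0.0143 and 0.00299). Its second probe rose in the mean (0.43, adjusted p = 0.0335) but was not called at 24 h (0.62, adjusted p = 0.0513) or at 48 h (0.24, adjusted p = 0.43). PCGF1, a Polycomb ring finger protein, fell 1.57-fold and 1.47-fold (adjusted p = 0.0264 and 0.0466). BRCA1 rose 1.61-fold at 48 h (adjusted p = 0.0162), and so did its second probe (0.74, adjusted p = 0.00438). HCFC1, the host cell factor that binds BAP1, rose 1.30-fold in the mean, and EED, a core subunit of Polycomb complex PRC2, fell 1.33-fold at 48 h. Leaving out the averaged DMSO pair at 24 h gave 0 calls at 24 h, and leaving out that at 48 h gave 2 calls at 48 h and 4 in the mean. The 48 h count was 1 to 2 when any 1 of the ICG-001 replicates of that time was left out.

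Around SF3B1, 17 of 19 proteins of the U2 snRNP and its SF3A and SF3B complexes were tested. At 24 h 1 rose and 1 fell, at 48 h 3 rose and 0 fell, and in the mean 3 rose and 3 fell, with medians of -0.15, 0.003 and -0.05. SF3A3, a subunit of SF3A, rose 1.70-fold and 1.72-fold (adjusted p = 0.00852 and 0.00657). SF3B2, which sits beside SF3B1 in the SF3B complex, fell 1.41-fold at 24 h (adjusted p = 0.0339), while SF3B3, another subunit of that complex, rose 1.79-fold at 48 h (adjusted p = 0.0358). Subunits of this complex thus moved in both directions. U2AF1, which recognises the end of introns, rose 1.42-fold at 48 h, and its second probe rose too (0.92, adjusted p = 0.00866). Its partner U2AF2 fell 1.31-fold in the mean on its brightest probe, and a second probe fell at both times, by 0.93 at 24 h and 0.90 at 48 h (adjusted p = 0.00202 and 0.00197), which the counts over brightest probes do not hold. Leaving out the averaged DMSO pair gave 0 calls at 24 h and leaving out any other replicate of that time gave 1. The 48 h count became 1 when either DMSO replicate, or ICG-001 replicate 1 or 2 of that time, was left out.

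SRSF2 and MBD4, rarer mutated genes of uveal melanoma that act in splicing and in DNA repair, were both tested, and neither was called in any comparison. MBD4 had a mean change of 0.37 ± 0.22 (adjusted p = 0.23) and SRSF2 of -0.12 ± 0.12 (adjusted p = 0.46). In the difference of the effects and between the DMSO times, limma called 0 of the 113 tested genes of the 7 lists, and 0% and 0.00903% of all probes. Of the 113 genes, 5 and 7 had an unadjusted p below 0.05, where all probes had 5.05% and 6.57%.

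How the mean effect of each driver probe varied with the processing was followed over the alternatives. The brighter EIF1AX probes stayed above 0 and the dim one below 0 in all of those run. The GNA11 probes and the bright SF3B1 probe stayed below 0. SF3B1 probe ILMN_1674780 ran from -0.45 to 0.17 and changed sign when the single DMSO array at 48 h was left out, and the GNAQ value ran from -0.02 to 0.52 depending on which DMSO replicate at 24 h was left out.

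**Figure D5:**
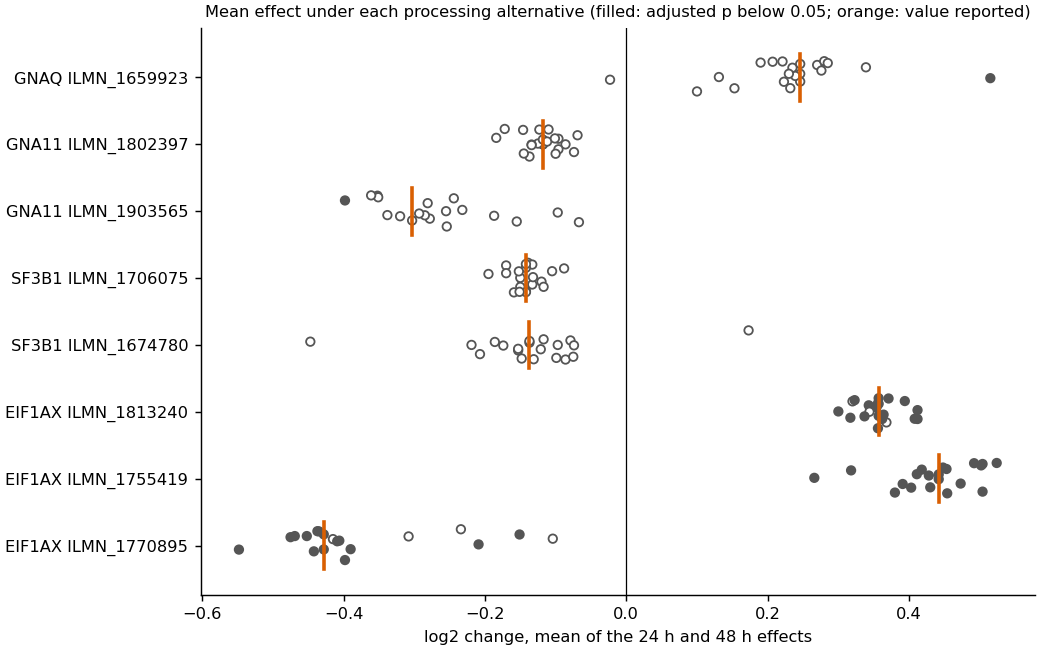
Log2 change with ICG-001 (mean of the 24 h and 48 h effects) of each tested probe under each processing alternative, 1 point for each; filled points have an adjusted p below 0.05 and the orange line is the value reported. EIF1AX probe ILMN_1755419 is filled at every point, between 0.27 and 0.52, and GNAQ has 1 filled point, at 0.52.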

How the data were processed

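The data were 14 arrays of 1 cell line. The authors deposited a table of non-normalized values, which per the file headers gives an intensity (mean signal of a probe) and a detection p-value for each array; the p-value falls in steps of 1 in 770 against negative controls. A second deposited table of 22579 probes holds the authors' values on a log2 scale, with a median of 7.985 over all its values. The submitters' processing notes name lumi; the sources used here give no settings for it.

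The neqc function of limma 3.58.1 (R 4.3.3) corrected the background through the detection p-values, added an offset of 16, normalized by quantiles and took log2. In the annotation 16545 probes had 1 symbol and 3 had several, and 15665 of those past the filter had 1. Symbols were updated through a RefSeq table (GRCh38.p14), used for names. A means model of the 4 groups was fitted over 22158 probes with lmFit and eBayes (residual degrees of freedom 6, prior 4.98), and p-values were adjusted over all of them. The fit was tested on simulated data. A gene in a list was represented by its probe with the highest mean level, and up to 4 genes of each list and comparison, those of smallest p past the threshold, were candidates for naming. The alternatives changed the background correction, scaling, filter, averaging of arrays, the b arrays, array weights, probes per gene, the groups fitted and each replicate. The number of arrays limits the precision. The genes and lists were chosen with earlier results of these data known.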

Additional observations from a re-analysis of the deposited data

How the results depend on the processing

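The number of driver probes called, 1 at 24 h, 1 at 48 h and 3 in the mean, moved with the processing. At 24 h it was 2 with offset 50, with detection p below 0.01 on every array of a group, with every array as a replicate, and with the letter b as a term and title number as a random block (correlation 0.493), 3 without background correction, and 0 with 75th percentile scaling, with 1 probe a gene and with only the groups of the comparison. At 48 h it was 3 without background correction and in the authors' table, and 0 with 75th percentile scaling, every array as a replicate, no b arrays, 1 probe a gene and only the groups compared. In the mean it was 1 with 1 probe a gene, and 2 with 75th percentile scaling, in the authors' table and with detection p below 0.01 on every array of a group. Leaving out each replicate gave 0 to 1 at 24 h, 0 to 1 at 48 h, 1 to 4 in the mean, and 0 to 1 between the DMSO times, where GNAQ was called without the single DMSO array at 24 h (1.27, adjusted p = 0.0312). An unchanged count need not be the same probe. Without the single DMSO array at 24 h, the 24 h call was GNAQ (change 1.08) and not the dim EIF1AX probe. The difference of the effects stayed at 0 in 21 of 21 alternatives. No called change reversed. Over all probes, the count of 3794 at 24 h was 1885 without the averaged DMSO pair, 2340 with only the groups compared and 2479 without the averaged ICG-001 pair. That of 4140 at 48 h was 1643 and 1844 without the averaged and the single DMSO replicate and 2564 without ICG-001 replicate 1. Scaling to the 75th percentile moved the median change of all probes at 48 h from -0.02 to 0.10 and the share of calls that were higher from 50.5% to 57.6%. No paired analysis was possible because the groups have no title number in common. In the lists, over all alternatives, the calls at 24 h, at 48 h and in the mean ran from 3 to 11, 2 to 13 and 8 to 19 for initiation factors (reported as 6, 6 and 14), 2 to 10, 2 to 10 and 8 to 17 for Gq effectors (4, 6 and 14), 0 to 5, 1 to 7 and 4 to 9 for BAP1 partners (2, 4 and 7), 0 to 7, 1 to 7 and 4 to 10 for U2 proteins (2, 3 and 6), 0 to 2, 0 to 1 and 1 to 3 for alpha subunits (1, 1 and 3) and 1 to 2, 1 and 1 to 2 for leukotriene genes (2, 1 and 2). Of the rarer mutated genes, 0 to 1 was called in the mean. Signal over background limits PLCB4, the dim GNA11 probe and the dim EIF1AX probe, and in the Gq list RGS4 and ARHGEF25.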
